A study of Mus musculus with 6 samples.

Results

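The Notch receptor genes Notch1, Notch2 and Notch3, the ligand genes Jag1, Jag2 and Dll1 and the Hes and Hey family genes Hes1, Hes6, Hey1 and Heyl were followed in differentiating mouse myoblasts that carry an expanded CUG repeat, with and without extra miR-322/-503. These 10 genes were picked by symbol in the deposited gene tables, out of 55421 genes in all. No threshold on their values was used, but earlier results of these data were known. C2C12 is an established mouse line of muscle precursors whose cells stop dividing and fuse once serum is withdrawn. All 6 libraries came from C2C12 cells stably transfected with a plasmid that places 200 CTG repeats behind a GFP gene, a cell model of myotonic dystrophy type 1, and all were taken on day 4 of differentiation. The 3 control libraries (CUG200-ctrl) came from such cells with the empty pLL4.0 vector, and the 3 miR-322/-503 libraries from such cells with the same vector carrying miR-322/-503. Each group is a drug-selected line of its own, so the effect of the microRNAs and other differences between the lines cannot be told apart. The p-values measure the spread between libraries of those lines, and while the methods state in general that assays had 3 biological and 3 technical replicates, the labels do not say which kind these are.

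Notch receptors span the cell membrane and are switched on by Delta and Jagged ligands on a neighbouring cell. Binding lets ADAM proteases and then gamma-secretase cut the receptor, and the freed intracellular part enters the nucleus, joins the DNA-binding protein Rbpj and a Mastermind coactivator, and turns on Hes and Hey genes, whose products repress transcription. In skeletal muscle, Notch signalling is known for keeping satellite cells undifferentiated and for holding back Myod1, while Hes6 is an unusual family member that antagonises Hes1 and is known to favour myogenic differentiation.

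The overexpressed microRNAs share bases 2 to 7 of their seed and differ at base 8. Their mature sequences, from RefSeq on GRCm38.p6, are shown because the seed fixes which sites were searched for in the Notch genes. Capitals mark bases 2 to 8.
miR-322-5p (chrX:53054306-53054327, minus strand): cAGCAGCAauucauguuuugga
miR-503-5p (chrX:53054027-53054049, minus strand): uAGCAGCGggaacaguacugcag

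The heptamer TGCTGCT, which pairs with bases 2 to 8 of miR-322-5p, was present in the annotated 3′ UTR of 24.4% of the 13409 tested genes that have one, and CGCTGCT, the counterpart for miR-503-5p, in 4.87%. Among the 10 Notch genes, Dll1 alone held TGCTGCT, at 2 places, and no member held CGCTGCT. Both Dll1 sites lie on the minus strand of GRCm38 in its 3′ UTR of 676 bases and are shown with the match in capitals.
Dll1 site at UTR base 68 (chr17:15367956-15367962): tatagccccgatgaaTGCTGCTgagagagg
Dll1 site at UTR base 105 (chr17:15367919-15367925): aggaaacccagggacTGCTGCTgagaacca

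Matches of these letters are descriptions of the reference and not measured binding. The Dll1 transcript that carries them was somewhat higher in the miR-322/-503 libraries, as given below with the other ligands.

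The libraries held 73532084 to 92157388 estimated counts. A count stood for about 75 covered bases and the commonest covered length among barely detected genes was 300 bases, so 4 estimated counts were taken as 1 read pair. Levels are given as CPM, estimated counts scaled to library size after TMM correction, which allows a gene to be compared between libraries, and as the deposited TPM, which is per transcript length and allows genes to be compared with each other. Short microRNA genes are poorly seen in such libraries, and control replicates 1 to 3 held 1, 7 and 2 estimated counts of Mir322, against 17, 0 and 3 with miR-322/-503. For Mir503 these were 1, 1 and 2 against 6, 4 and 5, in the labelled direction without overlap but under 12 counts, or 3 read pairs, in every library. The overexpression could not be measured at this depth. All means are given with the SD over n = 3 libraries, and log2 fold changes are miR-322/-503 over control with their standard error. A gene is called higher or lower at an adjusted p under 0.05 from the quasi-likelihood test of edgeR, adjusted by Benjamini-Hochberg across the 18140 tested genes.

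All 10 Notch genes passed the filter on low counts. In the miR-322/-503 libraries 6 were higher (Notch2, Notch3, Jag2, Dll1, Hes6 and Hey1), Jag1 was lower, and Notch1, Hes1 and Heyl did not pass the test. Of all tested genes, 13.2% were called higher and 15.5% lower. Notch3, Jag2 and Hey1 also exceeded a log2 fold change of 1, which 4.59% of tested genes did upwards and 5.29% downwards, and no member did downwards. The median log2 fold change of the members was 0.31, against -0.01 over all tested genes. The CPM ranges of the groups did not overlap for 9 of the 10 members, all except Notch1, but the same was true of 45.1% of tested genes. In these bulk libraries, fewer cells that express a gene and less of its RNA per cell cannot be told apart.

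**Figure D1:**
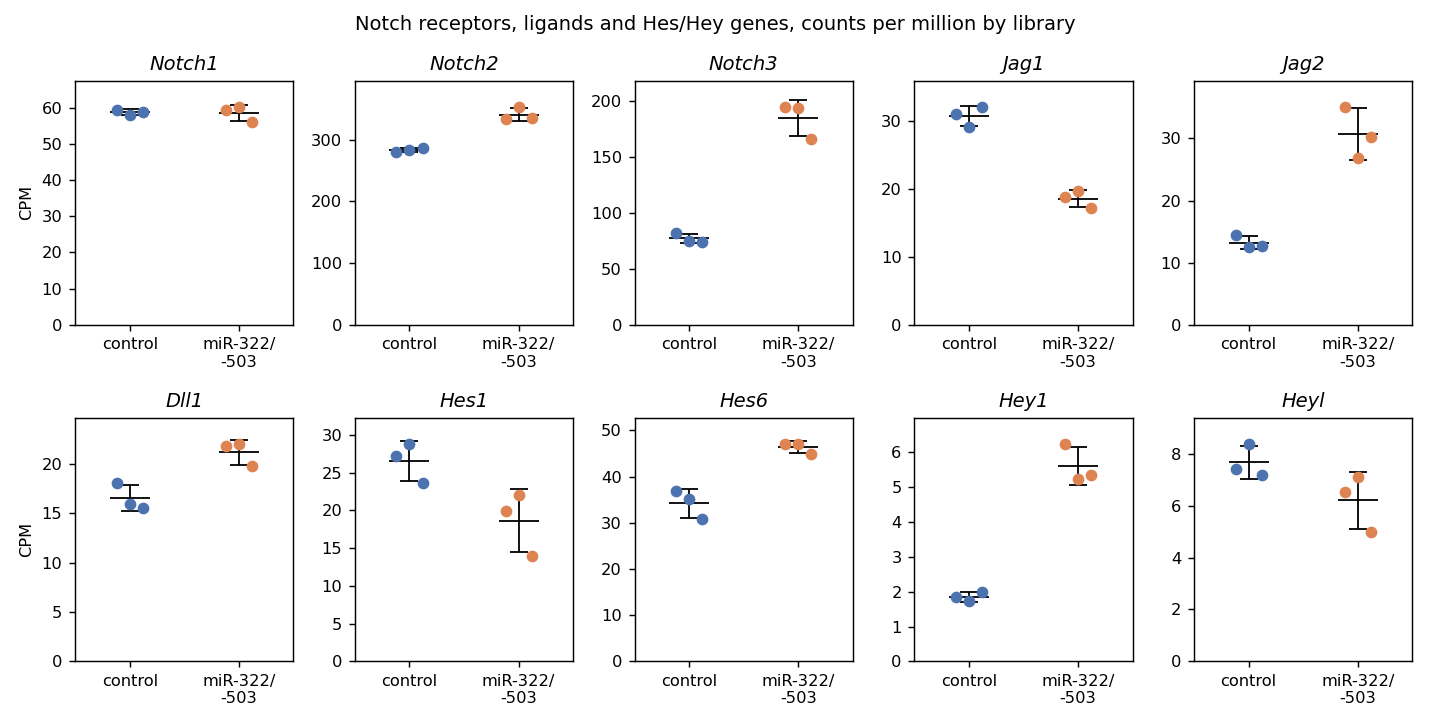
CPM of each Notch gene (y axis, from 0) in the 3 control libraries (blue) and the 3 miR-322/-503 libraries (orange), with the group mean and SD as black bars. The groups stand clear of each other for Notch3, Jag2 and Hey1, and overlap for Notch1.

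Among the receptors, Notch3 rose, Notch2 rose by a smaller factor, and Notch1 showed no detectable change. Notch3 (chr17:32120820-32166852, minus strand, GRCm38), a receptor best known from vascular mural cells and also described in muscle progenitors, measured 81.7, 75.2 and 74 CPM in the control and 194, 193 and 166 CPM in the miR-322/-503 libraries. The lowest miR-322/-503 library, replicate 3, was still above every control library. The means of 77.0 ± 4.17 and 185 ± 16.0 CPM differ 2.40-fold, a log2 fold change of 1.26 ± 0.08 (SE, edgeR, adjusted p = 3.4e-05).

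Notch2 (chr3:98013527-98150361, plus strand), the most abundant receptor in both groups, read 280, 284 and 286 CPM in the control and 334, 353 and 336 CPM with miR-322/-503. These libraries were tight within each group and did not overlap. The log2 fold change was 0.27 ± 0.05 (SE; edgeR, adjusted p = 0.00836), a 1.20-fold rise from 283 ± 3.29 to 341 ± 10.6 CPM.

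Notch1 (chr2:26457903-26516663, minus strand), the receptor most often studied in satellite cells, stayed between 58.0 and 59.5 CPM in the control and between 55.9 and 60.2 CPM in the miR-322/-503 libraries. The ranges overlap and the log2 fold change was -0.01 ± 0.06 (SE; edgeR, adjusted p = 0.955). Its 95% interval, -0.135 to 0.123, bounds the change that these libraries could have missed.

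Annotated genes overlap several of these loci and the sources used here do not say whether counting used strand. Notch2 shares its strand with Gm42819 and Gm42820, which had at most 213 counts in any library, and Notch3 has the antisense gene Gm17276, with at most 65 counts. These counts are small beside the lowest counts of Notch2 (21638, control replicate 1) and Notch3 (6207, control replicate 2). Notch1 has the antisense gene 0610009E02Rik, with at most 75 counts, while its own lowest count was 4206 (miR-322/-503 replicate 3).

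Because TPM is per length, the receptor genes can be set against each other within a library. Notch2 supplied 62.2 ± 1.71% of the summed receptor TPM in the control and 51.8 ± 1.75% with miR-322/-503. Notch3 went from 22.2 ± 0.879% to 37.2 ± 2.06%, and Notch1 from 15.6 ± 0.843% to 11 ± 0.338%. Receptor transcripts as a whole went from 82.7 ± 1.85 to 118 ± 9.69 TPM. For each of these shares no control library overlapped a miR-322/-503 library, and the two-sided exact permutation test gave p = 0.10 (adjusted over 6 shares 0.10), the smallest that 3 against 3 libraries allow. The ratio of Notch3 to Notch1 in TPM was 1.42 ± 0.0247 in the control and 3.39 ± 0.282 with miR-322/-503.

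The ligands moved in different directions, with Jag1 lower and Jag2 higher. Jag1 (chr2:137081456-137116644, minus strand), a Jagged ligand, measured 31.0, 29.1 and 32.0 CPM in the control and 18.7, 19.7 and 17.2 CPM with miR-322/-503. All miR-322/-503 libraries lay below all control libraries. Jag1 fell 1.65-fold, from 30.7 ± 1.49 to 18.5 ± 1.24 CPM (log2 fold change -0.73 ± 0.08 SE; edgeR, adjusted p = 0.000662).

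Jag2 (chr12:112907819-112929776, minus strand), the second Jagged ligand, measured 14.4, 12.5 and 12.6 CPM in the control and 35.0, 26.8 and 30.3 CPM with miR-322/-503. The miR-322/-503 libraries were spread more widely than the controls but none came near them. Jag2 rose 2.33-fold, from 13.2 ± 1.03 to 30.7 ± 4.14 CPM (log2 fold change 1.22 ± 0.12 SE; edgeR, adjusted p = 0.000274).

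Dll1 (chr17:15367354-15376872, minus strand), the Delta ligand known for keeping muscle progenitors from differentiating in development, measured 18.1, 16.0 and 15.6 CPM in the control and 21.8, 22.1 and 19.8 CPM with miR-322/-503. The groups were separate in CPM, but in TPM the highest control library (12.9 TPM) lay above the lowest miR-322/-503 library (12.8 TPM). The 1.28-fold rise gave a log2 fold change of 0.36 ± 0.09 (SE; edgeR, adjusted p = 0.0265). The call was lost without control replicate 2 (adjusted p = 0.0798), control replicate 3 (0.0783), miR-322/-503 replicate 1 (0.0687) or miR-322/-503 replicate 2 (0.0830), and with limma on log2(TPM + 1), where the log2 fold change was 0.21 (adjusted p = 0.211).

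**Figure D2:**
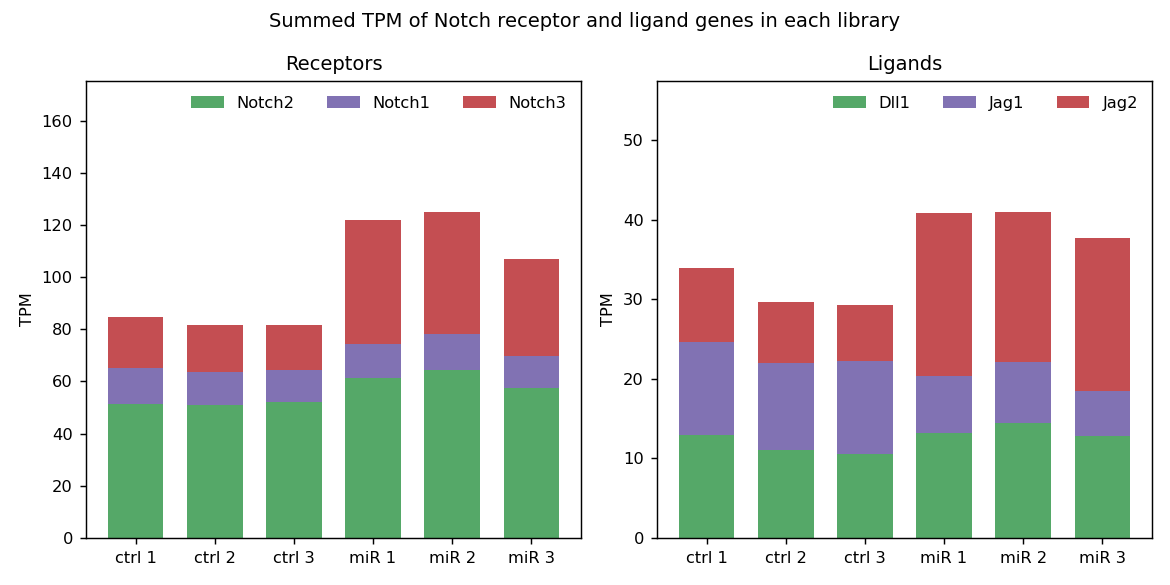
TPM (y axis) of the Notch receptor genes (left) and ligand genes (right), stacked by gene, in each control (ctrl) and miR-322/-503 (miR) library. The red Notch3 and Jag2 segments are taller in every miR-322/-503 library, while the Jag1 segment is shorter.

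The ligand transcripts therefore had another make-up in the miR-322/-503 libraries. In the control, Jag1 supplied 37.0 ± 2.76% of the summed ligand TPM, Dll1 37.2 ± 0.953% and Jag2 25.8 ± 1.82%. With miR-322/-503 Jag2 held the highest share, 49.0 ± 2.59%, with Dll1 at 33.8 ± 1.58% and Jag1 at 17.2 ± 1.81%. The sum went from 30.9 ± 2.57 to 39.8 ± 1.87 TPM. The exact permutation p was again 0.10 for each share, the smallest possible. The Dll1 share moved by -3.39 percentage points in TPM but by 2.74 points when shares were taken of estimated counts, so its direction depends on the scale. The ratio of Jag2 to Jag1 was 0.702 ± 0.10 in the control and 2.88 ± 0.447 with miR-322/-503.

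Among the Hes and Hey genes, Hey1 and Hes6 rose, while Hes1 and Heyl had lower means without passing the test. Hey1 (chr3:8663359-8667256, minus strand), a repressor that is a common readout of Notch activity, measured 1.83, 1.72 and 2.0 CPM in the control and 6.24, 5.24 and 5.36 CPM with miR-322/-503. Every miR-322/-503 library was above every control library. The 3.03-fold rise was the largest among the members in edgeR (log2 fold change 1.60 ± 0.15 SE, adjusted p = 0.000198), while limma on log2(TPM + 1) put Hey1 at 1.09, below Notch3 at 1.21 and Jag2 at 1.19. The rise was measured at a low level of 142 to 169 estimated counts per control library.

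Hes6 (chr1:91411483-91414038, minus strand) measured 36.9, 35.0 and 30.8 CPM in the control and 47.1, 47.0 and 44.8 CPM with miR-322/-503. The groups did not overlap. The 1.35-fold rise gave a log2 fold change of 0.43 ± 0.08 (SE; edgeR, adjusted p = 0.00655).

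Hes1 (chr16:30064384-30067796, plus strand), the repressor most often used as a Notch target, measured 27.2, 28.8 and 23.6 CPM in the control and 19.9, 22 and 14 CPM with miR-322/-503. The groups did not overlap, and replicate 3 was the lowest library in each. The log2 fold change was -0.51 ± 0.17 (SE; edgeR, adjusted p = 0.0612), with a 95% interval of -0.907 to -0.112. Hes1 passed the threshold with DESeq2 (adjusted p = 0.0139) and with limma on log2(TPM + 1) (0.0183). In edgeR it passed with a replicate block (adjusted p = 0.0146) and without miR-322/-503 replicate 2 (0.0442).

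Heyl (chr4:123233556-123249875, plus strand), a Hey relative expressed in satellite cells, measured 7.42, 8.38 and 7.19 CPM in the control and 6.51, 7.12 and 4.99 CPM with miR-322/-503. The highest miR-322/-503 library fell just short of the lowest control library. The log2 fold change was -0.30 ± 0.16 (SE; edgeR, adjusted p = 0.195; 95% interval -0.667 to 0.060), and the median over all tested genes on chromosome 4 was -0.19. Without miR-322/-503 replicate 3, the lowest library, the log2 fold change of Heyl was -0.17 (adjusted p = 0.437).

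Of the Hes and Hey members, only Hey1 and Hes6 were thus called, both higher, and the lower means of Hes1 and Heyl did not pass. In TPM, the ratio of Hey1 to Heyl was 0.582 ± 0.0930 in the control and 2.06 ± 0.343 with miR-322/-503, and that of Hes6 to Hes1 was 1.11 ± 0.132 and 2.32 ± 0.325. The control order by mean TPM ran Notch2 (51.4), Hes6 (45.0), Hes1 (40.8), Notch3 (18.4), Notch1 (12.9), Dll1 (11.5), Jag1 (11.4), Jag2 (8.0), Heyl (3.49) and Hey1 (2.03). Neighbours whose libraries overlapped in that order were Hes6 with Hes1, Notch1 with Dll1, and Dll1 with Jag1. With miR-322/-503, Notch3 stood in the third place (44.0 TPM), above Hes1 (26.8 TPM), and Jag2 in the fifth (19.5 TPM), while Jag1 (6.87 TPM) overlapped Hey1 (5.46 TPM). Replicate 3 of the miR-322/-503 group was the lowest of its group for 7 of the 10 members and the highest for none.

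The tested genes next to Notch3, Jag2 and Hey1 showed smaller typical changes than these members. The median log2 fold change of the 40 nearest tested genes was 0.08 around Notch3 and 0.09 around Jag2, and that of the 33 nearest was 0.26 around Hey1. Jag1 fell among neighbours with a median of 0.08. Hes6 lay within the quartiles of its neighbours, whose upper quartile was 0.83, and Heyl within those of its own, whose median was -0.14.

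**Figure D3:**
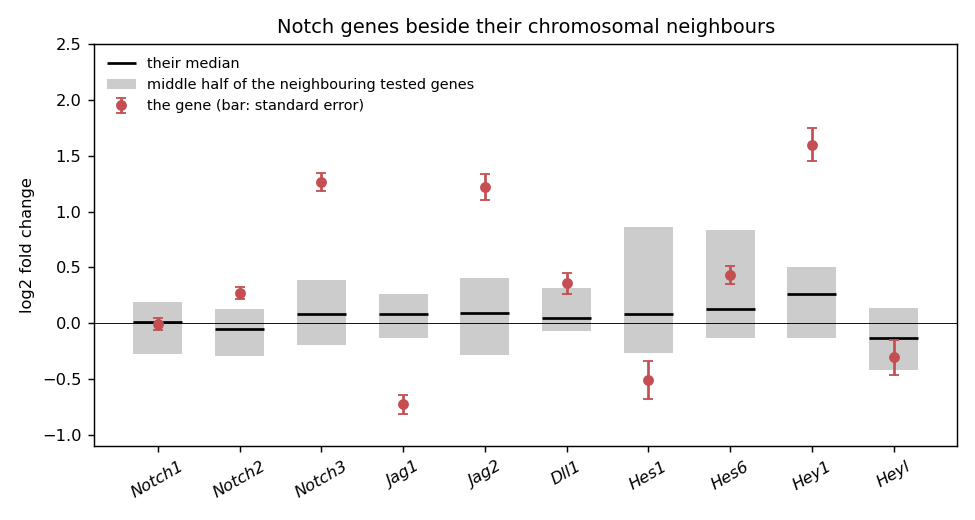
Log2 fold change, miR-322/-503 over control, of each Notch gene (red, with its standard error) beside the quartiles (grey box) and median (black line) of its neighbouring tested genes. Notch2, Notch3, Jag2, Dll1 and Hey1 lie above their boxes and Jag1 and Hes1 below, while Notch1, Hes6 and Heyl lie inside.

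The rest of the pathway was read from 63 further genes in 8 lists by role. Of these, 54 were tested, 6 were called higher, 13 lower and 35 did not pass, with a median log2 fold change of -0.07. Over all tested genes, 13.2% were called higher and 15.5% lower, which is also the background for the counts of the smaller lists below. Without miR-322/-503 replicate 3 the pathway genes called lower came to 8. Past a log2 fold change of 1, Neurl1a was higher and Nrarp, Maml2 and Tle4 were lower. A group of 9 genes stood at or under 12 estimated counts, 3 read pairs, in every library, among them the ligand genes Dll3 and Dll4 and the target genes Hes5 and Hey2.

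**Figure D4:**
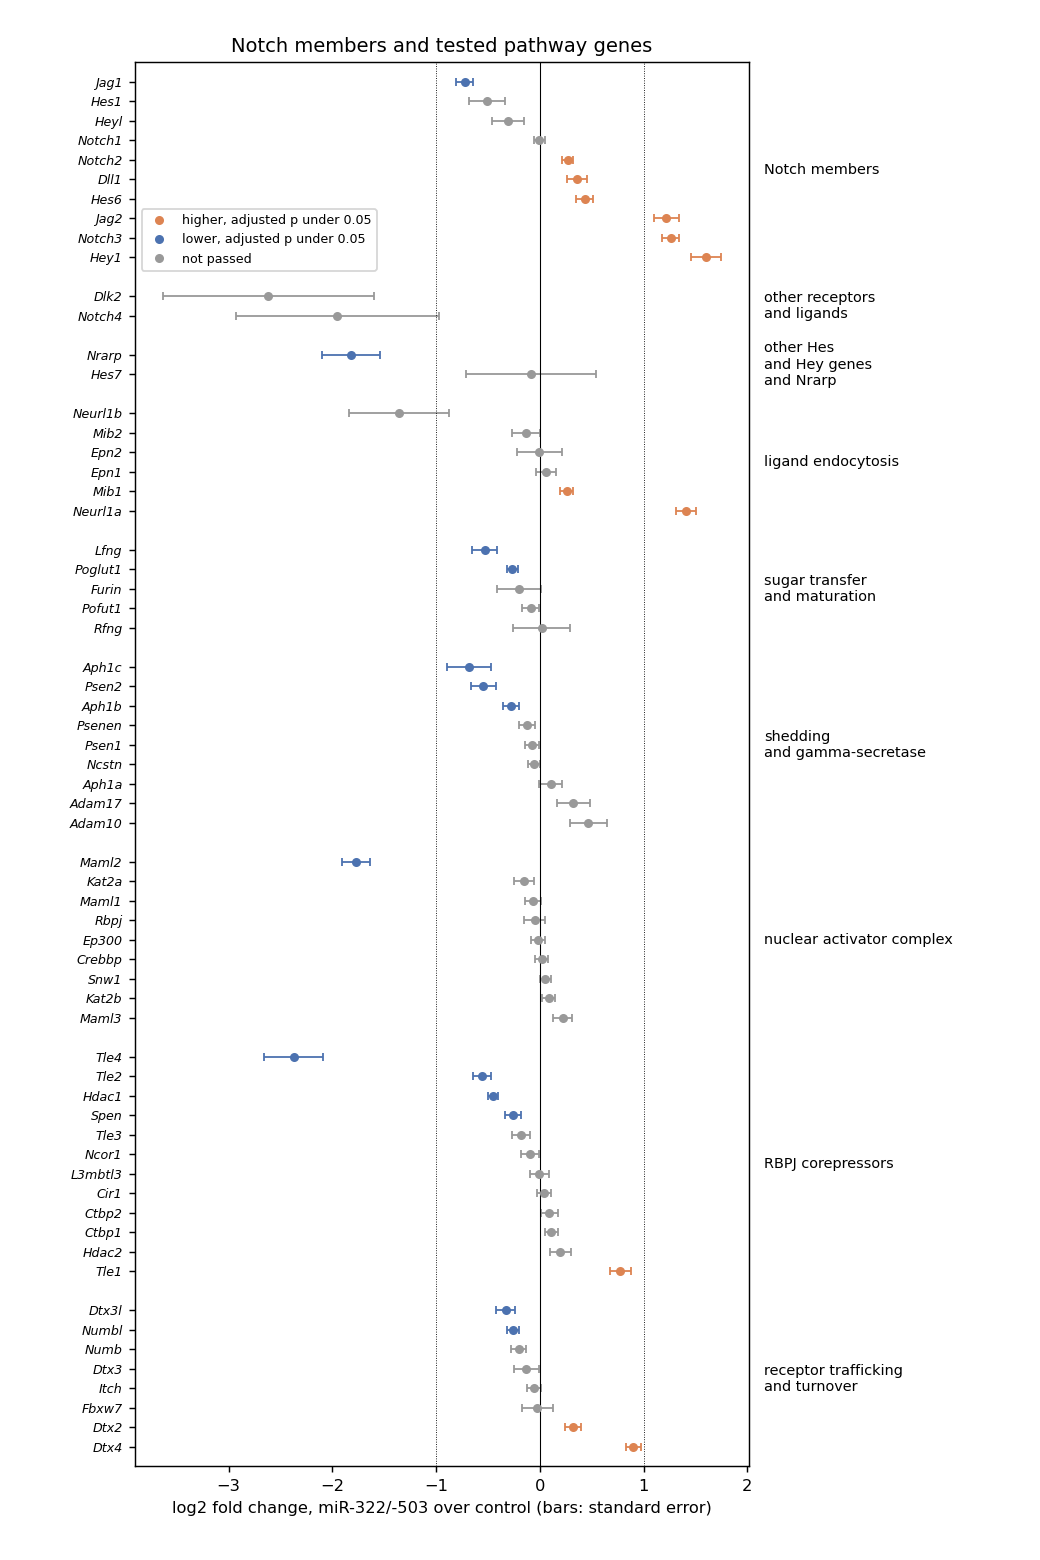
Log2 fold change, miR-322/-503 over control (x axis, bars are standard errors), of the 10 Notch members and tested pathway genes, grouped by role, with orange for higher, blue for lower and grey for not passed. Dotted lines mark 1 and -1, beyond which lie Notch3, Jag2, Hey1 and Neurl1a on the right and, among called genes, Nrarp, Maml2 and Tle4 on the left.

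Nrarp, a direct Notch target whose product damps the pathway, moved opposite to Hey1. It measured 1.20, 1.05 and 1.65 CPM in the control and 0.357, 0.360 and 0.386 CPM with miR-322/-503, so that its groups were well apart. The log2 fold change was -1.82 ± 0.28 (SE; edgeR, adjusted p = 0.00262), at 27 to 34 estimated counts in the miR-322/-503 libraries. With limma on log2(TPM + 1) it was -0.62 (adjusted p = 0.00426), short of the cut-off. Its 3′ UTR of 1884 bases holds TGCTGCT at UTR base 1488, shown in capitals as for Dll1 because Nrarp is a Notch target that was called. The same letters occurred in 20 of the 54 tested pathway genes (37.0%). Of these, 3 were called higher (Neurl1a, Mib1 and Dtx4), 5 lower (Nrarp, Tle4, Poglut1, Aph1b and Spen) and 12 not called, so the letters were found on both sides. UTR lengths were not matched in this count.
Nrarp site (chr2:25182943-25182949, plus strand): tccccttcgtagaagTGCTGCTgaccctgc

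Of the other receptors and ligands, Notch4 and Dlk2 were tested and neither passed. Notch4 gave 41, 63 and 61 estimated counts in control libraries, against 39, 7 and 0 with miR-322/-503, and was not called (log2 fold change -1.95 ± 0.98 SE; edgeR, adjusted p = 0.186), but was without miR-322/-503 replicate 1 (-3.80, adjusted p = 0.0357). Dll4, the Delta ligand of endothelium and of muscle fibres, was at or under the floor in every library.

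In ligand-sending cells, ubiquitin ligases drive the uptake of bound ligand that pulls on the receptor. Of 6 tested genes of this step, Neurl1a and Mib1 rose and none was called lower. Neurl1b, a second Neuralized gene, went from 8.30 ± 4.25 to 3.25 ± 1.52 CPM without passing (log2 fold change -1.36 ± 0.48 SE, edgeR, adjusted p = 0.0751). Its groups did not overlap, which was also true of 45.1% of all tested genes. Neurl1a, a Neuralized ligase, read 24.3, 20.2 and 20.3 CPM in the control and 61.7, 54.8 and 55.3 CPM with miR-322/-503. Its groups were far apart, with a log2 fold change of 1.41 ± 0.10 (SE, edgeR, adjusted p = 5.06e-05). The 40 nearest tested genes around Neurl1a had a median of 0.32, with quartiles of 0.16 and 0.55. Mib1, the Mind bomb ligase, rose from 69.1 ± 1.06 to 82.7 ± 5.10 CPM.

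In the receptor-making and cutting steps, the calls made were downwards. Of 5 tested genes of sugar transfer and maturation, Lfng and Poglut1 fell, and of 9 genes of shedding and gamma-secretase, Psen2, Aph1b and Aph1c fell. Adam10, the sheddase that makes the first of these cuts, went from 83.0 ± 12.6 to 115 ± 26.9 CPM without passing (log2 fold change 0.47 ± 0.18 SE, edgeR, adjusted p = 0.0899). The Adam10 groups did not overlap, as for 45.1% of all tested genes. Lfng, the Fringe enzyme that adds a sugar to Notch and tunes its response to Delta against Jagged ligands, went from 16.1 ± 1.71 to 11.1 ± 1.19 CPM (log2 fold change -0.53 ± 0.12 SE; edgeR, adjusted p = 0.0147). That call was lost without miR-322/-503 replicate 2 (adjusted p = 0.0518) or replicate 3 (0.0501).

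In the nucleus, the DNA-binding partner and most coactivators did not pass the test. Rbpj had 32.3 ± 2.42 CPM in the control and 31.1 ± 3.46 CPM with miR-322/-503 (edgeR, adjusted p = 0.766), and Maml1 had 43.1 ± 0.956 and 41.2 ± 3.21 CPM (adjusted p = 0.569). Of 9 tested genes of the activator complex only Maml2 was called. Maml2, a Mastermind coactivator, measured 34.3, 41.5 and 48.9 CPM in the control and 13, 11.4 and 12.1 CPM with miR-322/-503 (log2 fold change -1.77 ± 0.14 SE; edgeR, adjusted p = 8.44e-05). Its groups were far apart, and the chromosome 9 median was -0.27.

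Corepressors hold Rbpj targets silent or carry out repression by Hes and Hey proteins. Tle1 was called higher, and Tle4, Tle2, Hdac1 and Spen were called lower. The Groucho family genes split, with Tle1 going from 13.1 ± 0.864 to 22.5 ± 2.0 CPM and Tle4 from 2.40 ± 0.416 to 0.460 ± 0.124 CPM (log2 fold change -2.38 ± 0.28 SE; edgeR, adjusted p = 0.000714). With limma on log2(TPM + 1) Tle4 was at -0.75 (adjusted p = 0.00127), short of the cut-off. Of 8 tested genes of receptor trafficking and turnover, Dtx4 and Dtx2 rose and Dtx3l and Numbl fell. Numb, an inhibitor of Notch that is passed unequally to daughter cells, went from 34.7 ± 1.97 to 30.1 ± 1.15 CPM without passing (log2 fold change -0.20; edgeR, adjusted p = 0.0819).

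Promoter windows, 250 bases before to 50 after the start in the RefSeq set on GRCm38.p6, were searched on both strands for GTGGGAA, the core letters bound by Rbpj. They occurred in 6.38% of 32851 windows, in 7 of the 78 windows found for members and pathway genes (8.97%), and in none of the 9 windows that belong to 7 of the members. Hes1, Hey1 and Heyl had no entry. The Lfng window is shown because Lfng, described above, held a match, 109 bases before the start.
Lfng promoter (chr5:140607221-140607249, plus strand): ccgtatcccacGTGGGAAggagagatctc

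Satellite cell genes that have been tied to Notch, such as the collagen genes Col5a3 and Col6a2, were mostly lower. Of 11 tested, 2 rose and 8 fell, and the summed CPM of the list ran from 7730 to 7984 in the control and from 4379 to 4526 with miR-322/-503. Col5a3 went from 606 ± 5.02 to 271 ± 5.15 CPM (log2 fold change -1.16), Col6a2 showed a log2 fold change of -1.03, and Cd34, a surface marker of quiescent satellite cells, went from 247 ± 29.4 to 83.0 ± 13.1 CPM (-1.58). Pax7, the defining satellite cell factor, had at most 12 estimated counts in any library, and Calcr was also at or under the floor, and the collagen genes Col5a1 (3249 to 1962 CPM), Col6a1 (1956 to 1092 CPM), Col6a2 and Col5a3 made up most of the summed level, so that level is mainly one of matrix genes. The 2 that rose were Myf5, an early myogenic factor, from 37.9 ± 1.01 to 48.1 ± 0.282 CPM (log2 fold change 0.35; edgeR, adjusted p = 0.00364), and Spry1, a brake on growth factor signalling, from 18.3 ± 0.936 to 36.2 ± 3.12 CPM (0.98; adjusted p = 0.000206).

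The myogenic list, which checks the labelled myoblasts, was present in all libraries at summed levels of 4437 to 4820 CPM in the control and 5871 to 6178 CPM with miR-322/-503, with 8 genes higher and 1 lower of 12. Mef2c, a partner of the myogenic factors, went from 1.90 ± 0.513 to 23.3 ± 3.14 CPM (log2 fold change 3.61) and the fast troponin gene Tnnt3 from 155 ± 22.3 to 319 ± 10.6 CPM (1.04). Myod1, the determination factor that Notch holds back, rose from 46.6 ± 5.94 to 60.1 ± 2.06 CPM (log2 fold change 0.37; edgeR, adjusted p = 0.0270), a call lost without any of the miR-322/-503 replicates (adjusted p 0.0593, 0.0842 and 0.0575) and with limma (0.0593). Myog, the differentiation factor that follows it, was the gene that fell, from 203 ± 15.8 to 122 ± 10.2 CPM (-0.74; adjusted p = 0.000665). Mymk, which drives fusion, went from 226 ± 49.0 to 170 ± 14.7 CPM without passing (edgeR, adjusted p = 0.0796; DESeq2, 0.0207). Control replicate 3 was its highest library, and without it the log2 fold change was -0.22 in place of -0.41.

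Since Notch3 and Hey1 are also known from mural cells and the vessel wall, markers of other cell types were read beside them. Of 8 tested mural and smooth muscle genes none rose and 6 fell, with summed CPM of 7599 to 7920 in the control and 3213 to 3452 with miR-322/-503, and the pericyte genes Kcnj8 and Abcc9 were at or under the floor. Cnn1 (34.8 ± 0.557 to 1.53 ± 0.294 CPM), Tagln (804 ± 17.6 to 148 ± 7.82 CPM) and Mcam (7.53 ± 0.591 to 1.55 ± 0.305 CPM) fell most. Acta2, the smooth muscle actin gene, made up most of the summed level, at 5972 ± 147 and 2759 ± 122 CPM. Rgs5 and Myh11 did not pass the test (edgeR, adjusted p = 0.404 and 0.140).

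Of 10 endothelial genes, 7 were at or under the floor in all libraries, including the defining Pecam1, Cdh5 and Kdr. Of the 3 tested, Tek rose from 1.13 ± 0.159 to 4.20 ± 0.640 CPM and Egfl7 fell from 0.636 ± 0.104 to 0.253 ± 0.0405 CPM, and the summed list ran from 2.17 to 2.69 CPM in the control and from 4.15 to 5.89 CPM with miR-322/-503. The Egfl7 call (edgeR, adjusted p = 0.0253) was lost without control replicate 1 or 3 or miR-322/-503 replicate 2 or 3 (adjusted p 0.0649 to 0.0827), and with a replicate block (0.0542). Of 7 tested fibroblast genes 2 rose and 4 fell (summed 12116 to 12768 against 9049 to 9399 CPM). Most of that sum was the collagen gene Col3a1, which fell from 10027 ± 290 to 5990 ± 73.7 CPM, and Lum, a matrix proteoglycan gene, fell from 29.5 ± 2.14 to 3.21 ± 1.02 CPM. Col1a1 rose from 1835 ± 70.4 to 2652 ± 125 CPM and Dpt from 9.92 ± 0.675 to 19.0 ± 3.56 CPM. Of 4 tested osteoblast genes 1 fell, Alpl (1.60 ± 0.166 to 0.236 ± 0.211 CPM), with summed CPM of 58.0 to 71.3 against 59.6 to 60.1. The adipocyte list (7.33 to 9.20 against 7.98 to 10.5 CPM) and the macrophage list (2.59 to 3.92 against 3.86 to 4.28 CPM) held no called gene, and Adipoq, Ptprc and Adgre1 were at or under the floor. The part of the satellite cell, myogenic, mural, endothelial and fibroblast shifts in the Notch gene values was not tested.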

How the data were processed

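RNA-seq libraries were prepared and sequenced by a service company from total RNA of the CUG200 control and miR-322/-503 lines, 3 per group. According to the submitters' processing notes the tools were Trim Galore, HISAT2 and StringTie with the GRCm38 build, and their versions and the annotation are not given in the sources used here. The authors deposited a matrix of estimated counts per gene and, for each library, StringTie's coverage signal, FPKM and TPM. Coverage served to find how many estimated counts stand for a read pair, and FPKM was not used. The study ran DESeq2, which is an alternative here because edgeR's quasi-likelihood test was taken for counts.

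The deposited estimated counts were whole numbers and entered edgeR 4.0.16 in R 4.3.3 (filterByExpr, TMM factors, estimateDisp, glmQLFit, glmQLFTest) with all 6 libraries and no covariate. Of 55421 genes 18140 were tested. Standard errors are the log2 fold change over the square root of F. The scripts were tested on simulated data. Replicates of a group differed by more than sampling noise (chi-square per degree of freedom 12.1 to 17.7 on counts per read pair), so none was taken for a copy. Shares of TPM were compared with SciPy 1.17.1. Counting error alone limits the low genes, at 3 read pairs or 12 estimated counts. Gene positions come from the deposited tables, 3′ UTRs from GENCODE M21 and other sequences from RefSeq.

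The members, lists and tests were chosen with earlier results of these data known. Named genes are all members, Rbpj, Maml1, Lfng, Notch4, Dll4, Nrarp, Numb, Pax7, Myod1, Myog and Mymk whatever their values, and those past the study's cut-off (adjusted p under 0.05 and absolute log2 fold change above 1), at most 4 per pathway list and 3 per cell type list by size. Mib1, Tle1, Neurl1b, Adam10, Acta2, Rgs5, Myh11, Col5a1, Col6a1, Myf5, Spry1, Col3a1, Col1a1, Dpt and the genes listed by direction in small counts were named after their values were seen. A pathway gene that counts in the totals is not reported here by name. Alternatives were DESeq2 1.42.0, other scaling factors, other filters, a replicate block, limma 3.58.1 on log2(TPM + 1), counts per read pair and each library left out.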

Additional observations from a re-analysis of the deposited data

How the results depend on the processing

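The calls of Notch2, Notch3, Jag1, Jag2, Hes6 and Hey1 held in direction and threshold under all alternatives run, and Dll1 and Hes1 were the members whose calls changed. The count of members called lower was 2 in place of 1 with DESeq2 and with limma on log2(TPM + 1), where Hes1 was added, and ran from 1 to 2 with a library left out. With limma, 1 pathway gene (Maml2) was lower past the cut-off in place of 3, Nrarp and Tle4 falling short. Over all genes, 391 were higher and 564 lower past it in place of 832 and 959. Limma used log2(TPM + 1), and Nrarp and Tle4 lay near or below the added 1. Nrarp averaged 0.952 TPM in the control and 0.263 TPM with miR-322/-503. Tle4 ran from 0.882 to 1.20 TPM in the control and averaged 0.187 TPM with miR-322/-503. How far the added 1 accounts for these differences between limma and edgeR was not tested. Pathway genes called lower ran from 8 to 11 with a library left out, against 13, the lowest without miR-322/-503 replicate 3. The Dll1 share of ligand transcripts reversed to 2.74 percentage points with shares of estimated counts, against -3.39 in TPM. Notch1, whose log2 fold change was -0.01, changed sign to 0.0026 with DESeq2, 0.0056 with RLE factors, 0.012 with upper-quartile factors, 0.0016 with limma and 0.0029 with counts per read pair, and ran from -0.0261 to 0.0264 with a library left out; Rbpj ran from -0.128 to 0.0305. Over the settings that keep every library, the values of the other named genes kept direction and side of the threshold in 193 cases, lost the call in 2 and gained it in 1. Depth limits Notch4, Nrarp and Tle4, which rest on a few read pairs in the miR-322/-503 libraries.

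Nothing in the labels says that replicate numbers pair the libraries, and same-numbered libraries deviated together only weakly (r across genes 0.131, 0.0687 and 0.0451), although each correlated best with its own number. With a replicate block, 6 members were higher and 2 lower, Hes1 being added (log2 fold change -0.53, adjusted p = 0.0146), Egfl7 was no longer called (adjusted p = 0.0542), 7 pathway genes were higher and 13 lower, and 2667 genes were higher and 3066 lower among all tested.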
